A study of Rattus norvegicus with 45 samples.

Results

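The 11 libraries whose dams received only corn oil, the vehicle of the series, were described by their gene content and by how far single genes varied between them. They are 11 of the 45 libraries of the series, 5 from female and 6 from male rat pups, chosen by the treatment named in the labels. Each library is 3′ Tag-seq of tissue labelled medial preoptic area, taken on postnatal day 10 from a pup whose dam was given corn oil from gestation day 8 until birth. No strain or genotype is given in the sources used here. The other 34 libraries came from pups of dams given bisphenols and were not used. The library names place the 11 in 6 litters, and 5 of these litters gave a female and a male library. Dams were assigned to treatment by cage pair, and which litters shared a cage is not given. Libraries are named here by sex and by the replicate number of the labels (female 1 to 5, male 1 to 6). The deposited tables of both sexes were joined for values over all 11 libraries and for the spread between libraries. No test was made between the sexes. The names of both tables say that outliers were removed before deposit.

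Library totals lay between 4747461 and 5959883 counts. Levels are CPM, the count of a gene divided by the library total and multiplied by 1000000. A transcript gives about 1 tag near its 3′ end in this method, so levels were not divided by transcript length, and the order of genes given here is an order of tag counts. Whether tags inside introns were counted is not given in the sources used here. A count of 3, taken as the floor, corresponds to 0.503 to 0.632 CPM in a library and to 0.0495 CPM over all 11, for counting error only. In all 11 libraries 17058 genes reached 1 CPM, of which 14289 carry an assigned symbol. The correlation of log2(CPM + 1) between libraries across genes, which are not independent replicates, was 0.988 to 0.993 over the 55 pairs, so no library was a copy of another. In bulk tissue, fewer cells of a type and less RNA per cell cannot be told apart. Single genes are given by their value in each of the 5 females and by the lowest, highest and median value of the 6 males. Values with ± are the mean and SD over the 11 libraries (n = 11), and they leave out that litter-mates share a dam.

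The medial preoptic area lies at the front of the hypothalamus, below and behind the septum and next to the basal forebrain. In rodents it is known for its part in mating, parental care, body temperature and sleep. Many of its neurons release GABA, many make neuropeptides such as galanin, neurotensin or enkephalin, and many respond to gonadal steroids through receptors such as estrogen receptor alpha and the progesterone receptor. Peptides are cut from longer precursors by convertases and stored in dense-core granules with the granins.

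Of the genes for peptide precursors and for granule proteins, those whose promoters hold the full cAMP response element were printed, since several of them were among the abundant peptide genes of these libraries. The element is the palindrome TGACGTCA, bound by CREB, and reads the same on both strands. A promoter here is the RefSeq window of 250 bases before to 50 bases after the annotated start, on the later build GRCr8. The element stood in 525 of 27457 promoters (1.91%), in 3 of the 41 peptide precursors with a promoter (7.32%) and in 2 of the 9 processing and granule genes with one (22.2%). The third precursor, Ucn (urocortin), had 1 count in all. The counts used here do not bear on whether the element is bound. It is in capitals in these 4 sequences, which run 5′ to 3′ on the gene's strand:
Sst: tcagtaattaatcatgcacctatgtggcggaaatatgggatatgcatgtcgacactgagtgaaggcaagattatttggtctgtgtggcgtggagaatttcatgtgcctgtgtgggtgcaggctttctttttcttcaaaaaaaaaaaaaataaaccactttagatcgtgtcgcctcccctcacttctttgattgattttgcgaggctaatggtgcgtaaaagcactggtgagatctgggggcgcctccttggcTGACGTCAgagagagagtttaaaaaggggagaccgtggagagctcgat
Cartpt: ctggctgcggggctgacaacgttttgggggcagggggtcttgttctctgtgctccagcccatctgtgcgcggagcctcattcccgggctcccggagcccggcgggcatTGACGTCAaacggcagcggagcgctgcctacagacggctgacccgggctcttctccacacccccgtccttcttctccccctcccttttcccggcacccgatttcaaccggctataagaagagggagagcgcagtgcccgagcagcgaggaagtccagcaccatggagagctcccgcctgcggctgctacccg
Scg2: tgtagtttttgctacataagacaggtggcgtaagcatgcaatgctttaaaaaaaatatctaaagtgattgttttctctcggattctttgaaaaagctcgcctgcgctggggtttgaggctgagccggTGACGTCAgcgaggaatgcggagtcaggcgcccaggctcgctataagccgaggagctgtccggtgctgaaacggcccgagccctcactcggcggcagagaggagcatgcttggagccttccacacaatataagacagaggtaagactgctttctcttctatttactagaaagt
Vgf: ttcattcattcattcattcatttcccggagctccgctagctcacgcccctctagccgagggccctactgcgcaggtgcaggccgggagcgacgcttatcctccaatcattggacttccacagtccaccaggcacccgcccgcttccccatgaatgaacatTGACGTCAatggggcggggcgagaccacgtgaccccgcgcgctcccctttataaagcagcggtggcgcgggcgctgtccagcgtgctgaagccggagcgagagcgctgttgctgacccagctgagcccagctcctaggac
The Sst window (somatostatin) is chr11:90461296-90461595 on the plus strand and its element begins at base 253, past the annotated start. The Cartpt window (cocaine and amphetamine regulated transcript) is chr2:32991186-32991485 on the minus strand, with the element at base 109. Scg2 (secretogranin 2) has chr9:88256817-88257116 on the minus strand, with the element at base 128. Vgf, a granin-like secreted protein, has chr12:25276971-25277270 on the minus strand, with the element at base 161.

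The tissue label was set beside genes that mark the region and its neighbours. Of 12 transcription factors and markers listed for the preoptic area and hypothalamus, 5 had a mean of 1 CPM or more and 7 did not. Hmx3 and Otp, homeobox genes of hypothalamic neurons, had no count in any library. Hmx2, Six6, Nr5a1, Sim1 and Fezf1, each known from hypothalamic nuclei, averaged 0.106, 0.0703, 0.0528, 0.292 and 0.477 CPM. The galanin gene Gal, a leading peptide of rodent preoptic neurons, had 0.364, 0.175, 0.561, 1.06 and 1.29 CPM in females 1 to 5, and 0.671 to 1.26 CPM in males (median 0.734). The 5 members of the list above 1 CPM were Lhx6, Six3, Zic1, Moxd1 and Nkx2-1, which are also expressed in the ventral forebrain outside the hypothalamus. Nkx2-1, which sets ventral forebrain identity, had 7.46, 7.69, 4.12, 4.41 and 7.39 CPM in females 1 to 5, and 4.36 to 9.87 CPM in males (median 8.66). Lhx6, Six3, Zic1 and Moxd1 averaged 83.4, 48.8, 10.1 and 8.93 CPM. The list covers the hypothalamus as well as the preoptic area, so low values of its members do not settle whether the label holds. The samples are referred to below as corn oil libraries.

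Genes known from the striatum were abundant in the same libraries. All 12 members of that list averaged above 5 CPM, and their summed level was 2426, 2194, 3154, 2979 and 1936 CPM in females 1 to 5, and 1198 to 2767 CPM in males (median 1835). Pde10a, a phosphodiesterase of striatal projection neurons, had 572, 386, 773, 699 and 420.0 CPM in females 1 to 5, and 235 to 606 CPM in males (median 352). Ppp1r1b, which encodes DARPP-32, had 92.9, 52.8, 141, 118 and 73.4 CPM in females 1 to 5, and 26.5 to 142 CPM in males (median 49.8). Female 3, female 4 and male 1 were the high libraries of both genes, and male 4 was the lowest. In female 3, 10 of the 12 members were at their highest female value, and in male 1 all 12 were at their highest male value. Female 3 and male 1 are litter-mates from litter 84. Female 5 and male 4, the lowest of their sex for the summed level, are both from litter 9. Such pairs are not counted here as independent repeats. Drd1 and Drd2, the dopamine receptors of the direct and indirect striatal pathways, averaged 34.7 ± 13.7 CPM and 63.4 ± 15.3 CPM.

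The list for cholinergic neurons of the basal forebrain was lowest in the litter-mates female 3 and male 1, where the striatal list was highest. Its summed level was 186, 165, 84.2, 113 and 269 CPM in females 1 to 5, and 117 to 234 CPM in males (median 204). Female 5 had the highest female value and female 3 the lowest for all 7 members. Lhx8, the homeobox gene that these neurons need, had 39.3, 34.1, 14.4, 18.9 and 46.9 CPM in females 1 to 5, and 21.8 to 45.5 CPM in males (median 43.4). Gbx1, a second homeobox gene of the list, had 5.64, 7.52, 0.749, 4.23 and 8.87 CPM in females 1 to 5, and 3.36 to 11.2 CPM in males (median 8.47). Lhx6, a homeobox gene of neurons from the medial ganglionic eminence, had 75.3, 82.7, 32, 40.5 and 109 CPM in females 1 to 5, and 46 to 115 CPM in males (median 102). All 3 homeobox genes were lowest in female 3 and female 4 among the females and in male 1 among the males, the libraries in which the striatal list was highest. The preoptic list as a whole summed to 96.6, 115 and 119 CPM in those 3 libraries and to 155 to 196 CPM in the other 8, with Lhx6 the largest member in each of the 8. Whether the dissected area differed between pups was not tested.

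**Figure D1:**
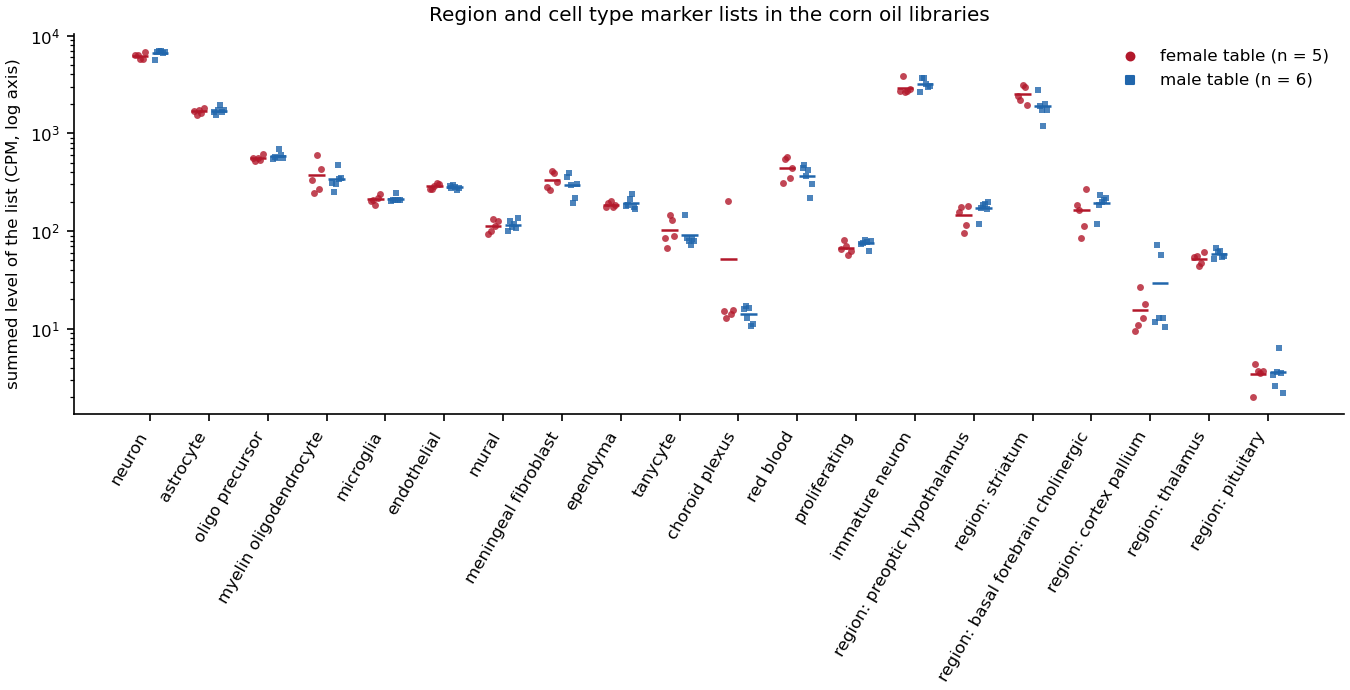
Summed CPM (log axis) of each cell type and region marker list in the 5 female (red circles) and 6 male (blue squares) corn oil libraries, with a line at the mean of each table. The striatum list lies between 1198 and 3154 CPM and the preoptic list between 96.6 and 196 CPM. The choroid plexus list has 1 library far above the rest. Sums of different lists depend on the genes listed, so they do not compare the amounts of the regions.

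Other neighbouring regions gave smaller sums. The cortical list summed to 9.46, 11, 26.9, 13 and 18.1 CPM in females 1 to 5, and 10.3 to 71.2 CPM in males (median 12.9). Male 2 and male 4 were the high libraries, with 71.2 and 57.3 CPM. Tbr1, a factor of deep-layer and other pallial neurons, reached 24.6 CPM in male 4. Slc17a7, the vesicular glutamate transporter of cortical neurons, had 0, 0.35, 5.05, 0.705 and 1.66 CPM in females 1 to 5, and 0.366 to 15.8 CPM in males (median 1.22). Its values in male 2 and male 4 were 9.45 and 15.8 CPM, and it had no count in female 1. The thalamic list, led by Tcf7l2 at 42.1 ± 5.36 CPM, summed to 43.8 to 67.8 CPM. Prl, the prolactin gene of the pituitary, had no count, and the pituitary list stayed between 2.0 and 6.32 CPM. Members of these lists are not confined to 1 region, and their share in the levels given below was not tested.

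The genes that make and package GABA were present at near-even levels in every library. Slc32a1, the vesicular transporter for GABA and glycine, had 138, 119, 101, 104 and 115 CPM in females 1 to 5, and 111 to 144 CPM in males (median 122). Gad1 and Gad2, which make GABA from glutamate, averaged 137 ± 10.6 CPM and 118 ± 15.2 CPM. Slc32a1 was above Gad2 in 5 of 11 libraries, so those neighbours had no fixed order. Abat, which breaks GABA down, and Slc6a11, a glial GABA transporter, averaged 114 ± 10.3 CPM and 40.04 ± 6.66 CPM. The 6 genes of the list together varied by 1.204 times between the highest and lowest female library and by 1.14 times between the males.

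Vesicular glutamate transporters were lower. Slc17a6, the transporter of most hypothalamic and thalamic glutamate neurons, had 9.09, 12.9, 14.8, 7.4 and 12 CPM in females 1 to 5, and 5.37 to 21.7 CPM in males (median 8.38). Slc17a8, found in some cholinergic and serotonergic neurons, had 6.91, 9.09, 7.67, 6.87 and 8.5 CPM in females 1 to 5, and 7.72 to 16.1 CPM in males (median 11). These 2 genes changed places between libraries, with Slc17a6 the higher in 7 of 11. The ratio of Slc32a1 to Slc17a6 tags was between 6.22 and 23.5, so the GABA transporter was the higher in every library, and its lowest value was in male 4. Slc1a1, a neuronal glutamate transporter, was even across libraries at 79.3 to 86.2 CPM.

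Acetylcholine genes were clearly expressed. Chat, which makes acetylcholine, had 37.6, 25.9, 18, 25.2 and 55.4 CPM in females 1 to 5, and 25.5 to 50.1 CPM in males (median 39.4). Slc5a7, the choline transporter, had 30.2, 31.1, 16.1, 20.8 and 47.1 CPM in females 1 to 5, and 20.6 to 35.9 CPM in males (median 27.4), and Slc18a3, the vesicular acetylcholine transporter, had 20.2, 16.6, 9.73, 14.5 and 34.4 CPM in females 1 to 5, and 16.6 to 32.4 CPM in males (median 25.3). All 3 were highest in female 5 and lowest in female 3 among the females, and lowest in male 1 among the males. Ache, the esterase that ends the signal and is not limited to cholinergic neurons, averaged 90.9 ± 22.5 CPM. Nos1, the neuronal nitric oxide synthase, averaged 45.7 ± 4.33 CPM and ranged over 39.3 to 54.5 CPM. Slc6a5, the neuronal glycine transporter, averaged 0.653 CPM and reached at most 1.31 CPM, in female 3.

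The enzymes that commit cells to a monoamine were low, while storage and breakdown genes were present. Th, tyrosine hydroxylase, had 0.364, 0.175, 0.749, 0.705 and 0.554 CPM in females 1 to 5, and 0.503 to 0.922 CPM in males (median 0.645). Tph2, the brain tryptophan hydroxylase, averaged 0.986 CPM, Hdc, which makes histamine, 0.405 CPM and Dbh, which makes noradrenaline, 0.346 CPM. Each of these 4 averages was under 1 CPM. Slc18a2, the vesicular monoamine transporter, had 24.4, 21.8, 30.1, 22.7 and 19.6 CPM in females 1 to 5, and 19.2 to 27.3 CPM in males (median 24), and Ddc, the decarboxylase shared by dopamine and serotonin synthesis, 17.1, 18, 18.2, 19.9 and 13.7 CPM in females 1 to 5, and 10.3 to 17.8 CPM in males (median 12.9). The transporter Slc6a3, which takes up dopamine, averaged 0.0487 CPM. Maoa and Maob, the monoamine oxidases, averaged 15.7 ± 1.72 CPM and 16.9 ± 3.33 CPM. In total 9 of the 15 members averaged under 1 CPM. Chat exceeded Th in 11 of 11 libraries, by 24.0 to 100.0 times in the 9 where Th had 3 counts or more and by at least 49.3 and 69.0 times in the other 2, with Th set to 3 counts.

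Of 56 neuropeptide precursors listed, 55 were in the tables, 33 averaged 1 CPM or more, 11 averaged 10 CPM or more, and only Sst passed 100 CPM. Sst had 151, 121, 124, 139 and 145 CPM in females 1 to 5, and 126 to 195 CPM in males (median 138). It was above Cartpt in 9 of 11 libraries. Cartpt had 115, 145, 135, 134 and 77.1 CPM in females 1 to 5, and 29.9 to 126 CPM in males (median 65.9), and its lowest value, 29.9 CPM, was in male 4. Penk, the enkephalin precursor, had 85.6, 64.3, 121, 109 and 82 CPM in females 1 to 5, and 53.6 to 123 CPM in males (median 79.6). Cartpt and Penk changed places, with Cartpt higher in 7 of 11.

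A second tier averaged between 30.4 and 39.2 CPM. Nucb2, the precursor of nesfatin, had 32.7, 43.3, 36.3, 37.9 and 37.5 CPM in females 1 to 5, and 37.1 to 45.4 CPM in males (median 40.5). Pdyn, the dynorphin precursor, had 42.5, 41.1, 45.3, 50.6 and 36.2 CPM in females 1 to 5, and 22.1 to 47.7 CPM in males (median 31.9), and Tac1, the precursor of substance P and neurokinin A, had 48.9, 34.4, 50.5, 43.4 and 35.1 CPM in females 1 to 5, and 14.3 to 46.6 CPM in males (median 27.2). Both were lowest in male 4. Penk exceeded Pdyn by 1.57 to 2.93 times in every library. Nts, the neurotensin precursor, had 33.3, 25.3, 27.1, 26.4 and 33.8 CPM in females 1 to 5, and 28 to 37.3 CPM in males (median 33.1), and Npy, neuropeptide Y, had 31.5, 26.6, 40.05, 30.3 and 25.1 CPM in females 1 to 5, and 16.2 to 44.6 CPM in males (median 29.4). Nucb2, Pdyn, Tac1, Nts and Npy could not be put in a fixed order, since each exceeded the next in only 5 to 8 of 11 libraries, but Npy exceeded the next gene, Prok2, in all 11.

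Prok2 (prokineticin 2) had 10.4, 15.9, 21.1, 19.9 and 9.61 CPM in females 1 to 5, and 8.85 to 19.4 CPM in males (median 18.2), and Apln (apelin) 12.2, 8.22, 16.7, 15.2 and 11.5 CPM in females 1 to 5, and 9.9 to 17.7 CPM in males (median 14.5). Cck (cholecystokinin) had 6.36, 6.64, 12.7, 9.87 and 6.28 CPM in females 1 to 5, and 5.74 to 31.7 CPM in males (median 7.58), and male 2 and male 4 were the 2 high libraries, as they were for the cortical list. Between 5 and 10 CPM stood Tac3 (neurokinin B, 5.01 to 13.2 CPM), Nppc (C-type natriuretic peptide, 4.19 to 15.8 CPM), Pnoc (nociceptin, 4.41 to 12.4 CPM), Nmb (neuromedin B, 2.11 to 11.4 CPM) and Gnrh1. Gnrh1, whose neurons lie scattered through the preoptic area and septum and release the hormone that drives the gonadotropins, had 3.82, 6.64, 2.43, 1.94 and 4.25 CPM in females 1 to 5, and 2.52 to 11.8 CPM in males (median 5.79). Its highest library was male 4 and its lowest was female 4.

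Several peptides known from the hypothalamus were rare. Trh (thyrotropin-releasing hormone) had 2.96 to 6.32 CPM, Agrp (agouti-related peptide) 3.04 to 6.04 CPM, Grp (gastrin-releasing peptide) 1.68 to 5.3 CPM and Crh (corticotropin-releasing hormone) 1.06 to 4.42 CPM. Avp (vasopressin) had 0.909, 0.699, 0.561, 0.881 and 1.11 CPM in females 1 to 5, and 0.671 to 1.9 CPM in males (median 1.23). Oxt (oxytocin) had no count in 7 libraries and at most 1.26 CPM, in male 4. Pmch (melanin-concentrating hormone) and Ghrh (growth hormone-releasing hormone) averaged 2.1 and 1.69 CPM, and Pomc averaged 1.27 CPM. Kiss1 (kisspeptin), Hcrt (orexin) and Vip averaged 0.0671, 0.166 and 0.475 CPM, below the floor of a single library. Gcg, the glucagon precursor, had no count.

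**Figure D2:**
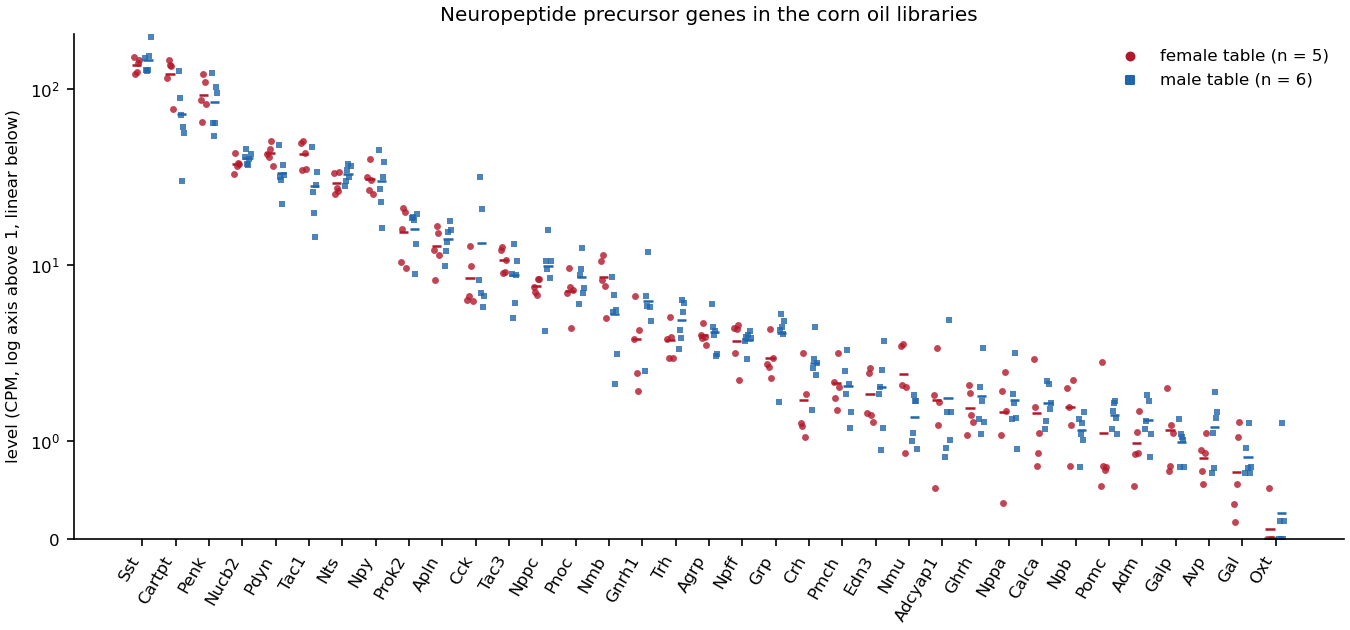
CPM of the neuropeptide precursors that averaged 1 CPM or more, followed by Gal and Oxt, in the 5 female (red circles) and 6 male (blue squares) corn oil libraries, ordered by the mean over 11 libraries (log axis above 1 CPM, linear below). Sst, Cartpt and Penk lead, the libraries of Cartpt and Cck are spread widely, and Gal and Oxt lie near 0.

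As a list, the genes that cut peptides and fill granules were more even than the precursors, though not every member was. Cpe, the carboxypeptidase that trims the cut peptides, had 600.4, 578, 567, 540.0 and 600.0 CPM in females 1 to 5, and 561 to 601 CPM in males (median 567). Pcsk2, the convertase that makes small peptides, averaged 214 ± 44.6 CPM and exceeded Pcsk1, the other neuroendocrine convertase, by 10.98 to 82.6 times in all 11 libraries. Pcsk1 had 5.45, 7.69, 3.37, 3.52 and 5.17 CPM in females 1 to 5, and 4.03 to 13.1 CPM in males (median 5.73). The granins and their partners Scg5, Chgb and Scg3 averaged 188 ± 13.6 CPM, 184 ± 20.3 CPM and 139 ± 11.3 CPM. Scg2, whose promoter is printed above, averaged 98.1 CPM with a range of 77.2 to 118 CPM, and Vgf averaged 63.2 CPM with a range of 50.3 to 81.9 CPM. Summed over 11 genes, this list varied by 1.06 times between females and 1.11 times between males, against 1.25 and 1.42 times for the precursor list. Pcsk1 alone varied by 2.28 times between females and 3.24 times between males. The median member of this list stood at 99.1 CPM and that of the precursor list at 1.56 CPM, so the 2 lists also differ in level.

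Peptide receptors were counted for 67 genes, of which 52 averaged 1 CPM or more and 22 averaged 10 CPM or more. Oprm1, the mu opioid receptor, had 89.6, 102, 76.2, 101 and 73.2 CPM in females 1 to 5, and 78.1 to 101 CPM in males (median 94.7) and stood highest. Sort1, a sorting receptor that also binds neurotensin, averaged 77.4 ± 7.12 CPM. Ednrb, an endothelin receptor found on glia, averaged 71.9 ± 10.6 CPM, and Adcyap1r1, the receptor of PACAP, averaged 59.9 ± 5.25 CPM. Hcrtr2, an orexin receptor, averaged 29.8 ± 4.16 CPM. Mu opioid receptor tags exceeded those of the kappa receptor Oprk1 by 4.23 to 7.72 times in all 11 libraries.

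Some receptors varied by 3 times or more within a table. Calcr, the calcitonin receptor, which is known in rodents from preoptic neurons that act in parental care, had 20.2, 20.3, 13.5, 21.5 and 15.9 CPM in females 1 to 5, and 19.4 to 58.6 CPM in males (median 25.5). The highest library was male 4. Oprd1, the delta opioid receptor, had 14, 15.2, 12.4, 13.6 and 9.98 CPM in females 1 to 5, and 3.79 to 13.6 CPM in males (median 8.02) and was lowest in male 4. Avpr1a, the vasopressin receptor of the brain, had 0.909, 1.57, 0.374, 2.11 and 1.66 CPM in females 1 to 5, and 1.17 to 2.6 CPM in males (median 1.32). Oxtr, the oxytocin receptor, named after its values were seen, had 9.46, 11.4, 8.05, 6.87 and 13.1 CPM in females 1 to 5, and 6.4 to 10.4 CPM in males (median 8.39), and exceeded Avpr1a by 2.50 to 10.4 times in 10 libraries. In female 3, where Avpr1a had fewer than 3 counts, it was at least 14.3 times higher. Mc3r, a melanocortin receptor, had no count.

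The receptors of thyroid, adrenal and metabolic hormones named in this paragraph were more abundant than the estrogen receptors Esr1 and Esr2 and the progesterone receptor Pgr, given below. Thra, thyroid hormone receptor alpha, had 199, 187, 176, 196 and 173 CPM in females 1 to 5, and 157 to 203 CPM in males (median 175) and exceeded Thrb, the beta receptor, by 2.01 to 4.398 times in every library. Igf1r, the receptor of insulin-like growth factor 1, averaged 129 ± 11.4 CPM. Nr3c2, the mineralocorticoid receptor, had 86, 77.4, 103, 96.6 and 77.6 CPM in females 1 to 5, and 53.3 to 87.6 CPM in males (median 66.9), and Nr3c1, the glucocorticoid receptor, had 69.1, 63.3, 77.3, 64.9 and 71.1 CPM in females 1 to 5, and 57.7 to 75.8 CPM in males (median 63.3). The mineralocorticoid receptor was the higher in 9 of 11 libraries, and the exceptions were male 4 and male 6. Lepr, the leptin receptor, averaged 69.6 ± 4.68 CPM, Ghr, the growth hormone receptor, 46.6 ± 4.8 CPM, and Insr, the insulin receptor, 39 ± 2.6 CPM.

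Esrrg, the orphan receptor named in the title of the series, had 125, 122, 159, 158 and 126 CPM in females 1 to 5, and 88.3 to 149 CPM in males (median 121). It was at its highest in female 4 and in the litter-mates female 3 and male 1, and at its lowest in male 4. These are the libraries at the ends of the striatal list. Igf1r and Esrrg changed places, with Igf1r higher in 5 of 11. Its relatives Esrra and Esrrb averaged 13.4 ± 2.85 CPM and 9.56 ± 3.02 CPM.

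Esr1, estrogen receptor alpha, had 15.8, 11.4, 15, 16.7 and 16.8 CPM in females 1 to 5, and 11.1 to 15.9 CPM in males (median 14.1). The highest female library was 1.48 times the lowest, and the highest male library 1.43 times the lowest. Pgr, the progesterone receptor and a known estrogen target, had 13.5, 9.44, 8.23, 9.87 and 12.9 CPM in females 1 to 5, and 7.89 to 13.9 CPM in males (median 12), and Esr1 exceeded it in 9 of 11 libraries. Esr2, estrogen receptor beta, had 4.91, 1.57, 3.18, 4.58 and 2.22 CPM in females 1 to 5, and 2.36 to 3.34 CPM in males (median 2.94), and Esr1 exceeded it in 11 of 11 libraries, by 3.22 to 7.58 times. Esrrg exceeded Esr1 by 6.65 to 10.7 times. Cyp19a1, the aromatase that makes estradiol from testosterone, had 3.45, 3.15, 2.99, 4.23 and 3.7 CPM in females 1 to 5, and 1.69 to 3.84 CPM in males (median 3.16). Srd5a1, a 5-alpha reductase, averaged 7.5 ± 1.02 CPM, Prlr, the prolactin receptor, 8.75 ± 1.63 CPM, and Greb1, an estrogen-responsive gene, 4.05 ± 1.41 CPM. Hsd17b1 and Ghsr, the ghrelin receptor, averaged under 1 CPM.

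**Figure D3:**
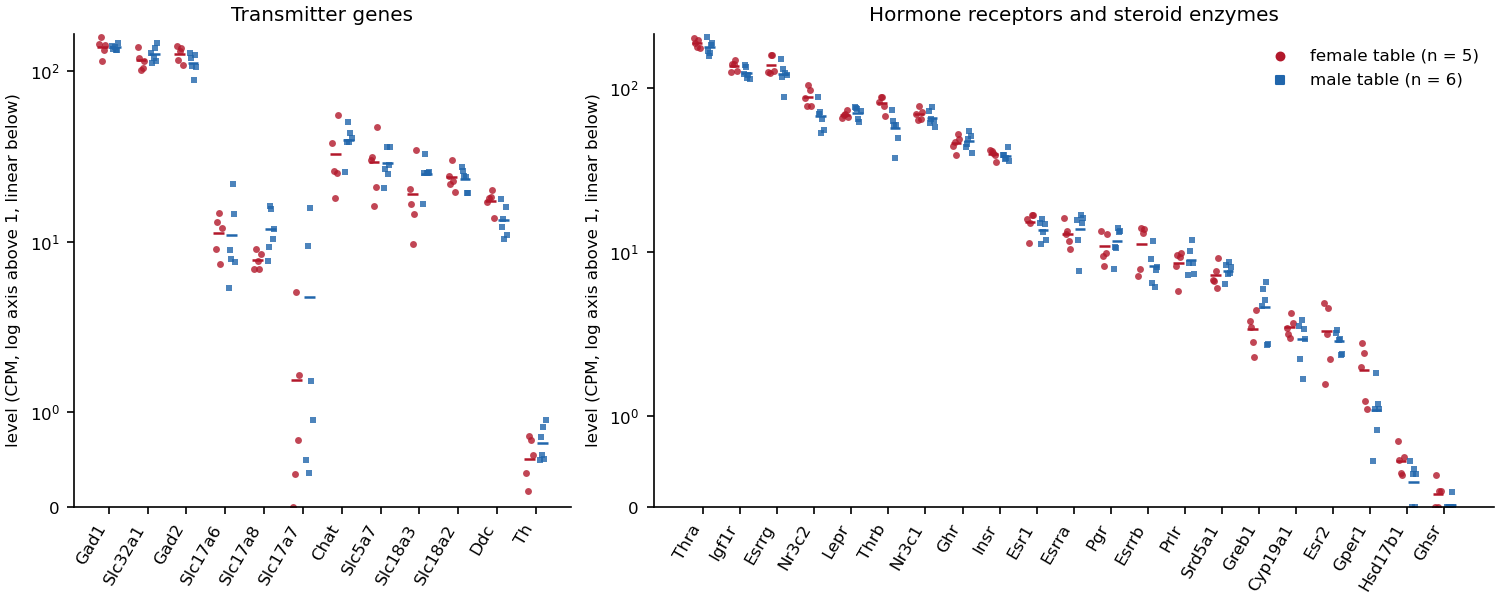
CPM of transmitter genes (left) and of hormone receptors and steroid enzymes (right) in the 5 female (red circles) and 6 male (blue squares) corn oil libraries, ordered by mean within the right panel, with a line at the mean of each table (log axis above 1 CPM, linear below). GABA genes lie above the vesicular glutamate transporters in each library, and Thra, Igf1r and Esrrg lie above Esr1 and Pgr.

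Among amine receptors, serotonin receptors led. Htr2c had 142, 111, 131, 136 and 116 CPM in females 1 to 5, and 72.9 to 119 CPM in males (median 94) and Htr2a had 132, 101, 103, 102 and 89.3 CPM in females 1 to 5, and 74.4 to 125 CPM in males (median 105), and each was the higher in some libraries (Htr2c in 7 of 11). Htr4 averaged 70.1 ± 19.4 CPM and Htr7 35.1 ± 5.96 CPM. Drd2 exceeded Drd1 by 1.22 to 2.48 times in every library. Of 31 receptors, 26 averaged 1 CPM or more. Among 15 acetylcholine receptors, Chrm3, a muscarinic receptor, led with 139, 125, 104, 118 and 149.7 CPM in females 1 to 5, and 109 to 166 CPM in males (median 150.2), and Chrm2 averaged 28.6 ± 6.89 CPM. The nicotinic subunit Chrna7 averaged 19.3 ± 2.48 CPM.

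Receptors of glutamate and GABA gave the highest tag counts of any receptor list. Grm5, a metabotropic glutamate receptor, had 1154, 1038, 1264, 1214 and 1123 CPM in females 1 to 5, and 854 to 1248 CPM in males (median 1077). Grik2, Grm7, Gria2 and Grm3 averaged 662, 637, 623 and 562 CPM, and their order was not the same in all libraries. Grin2b, the NMDA receptor subunit known to prevail early in life, exceeded Grin2a, which becomes common later, by 4.47 to 6.28 times in each library. Of the GABA receptors, Gabbr1, Gabrb1 and Gabrg3 averaged 483, 478 and 464 CPM. Slc12a5, the chloride exporter on which inhibition by GABA rests in mature neurons, had 152, 142, 147, 130.1 and 155 CPM in females 1 to 5, and 126 to 158 CPM in males (median 145), and Slc12a2, the chloride importer, 46, 46, 41, 41.6 and 44.5 CPM in females 1 to 5, and 38 to 51.6 CPM in males (median 44.8). The exporter was the higher by 2.60 to 3.81 times in 11 of 11 libraries.

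Immediate early genes, which neurons switch on within minutes of strong input, were low to moderate. Jun averaged 33.1 ± 3.99 CPM. Egr3 had 33.3, 26.4, 41.5, 45.5 and 24.8 CPM in females 1 to 5, and 14.5 to 48 CPM in males (median 27) and Egr1 32.4, 20.8, 40.8, 31.9 and 18.5 CPM in females 1 to 5, and 15 to 39.8 CPM in males (median 20.6). Both were highest in male 1 among the males and lowest in male 4. Fosl2 averaged 18.3 CPM and stood out in female 2 with 37.4 CPM. Fos itself had 3.64, 2.97, 3.93, 3.52 and 4.25 CPM in females 1 to 5, and 0.914 to 4.7 CPM in males (median 3.69), and Arc 2.18, 2.45, 2.43, 3.0 and 2.77 CPM in females 1 to 5, and 0.843 to 3.52 CPM in males (median 1.31).

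The pan-neuronal list had the largest of the cell type sums, which also depends on the genes listed. The 12 pan-neuronal genes summed to 6383, 6387, 5749, 5776 and 6755 CPM in females 1 to 5, and 5669 to 6939.5 CPM in males (median 6751). Nefm, a neurofilament protein of large axons, had 453, 463, 331, 274 and 621 CPM in females 1 to 5, and 288 to 751 CPM in males (median 588), with low values in female 3, female 4 and male 1. Genes of young neurons were also high. Tubb2b, a tubulin of growing neurons, averaged 1769 ± 313 CPM, Stmn1 886 ± 108 CPM, and Dcx (doublecortin) 96.7 ± 16.6 CPM. Female 2 had the highest sum of that list, 3819 CPM. Dividing cells were represented by Mki67 at 22.3 ± 3.07 CPM and Top2a at 22 ± 3.24 CPM.

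Astrocyte genes summed to 1550.3 to 1958 CPM. Slc1a2 and Slc1a3, the glial glutamate transporters, averaged 321 ± 25.8 CPM and 226 ± 13.7 CPM, and Aqp4, the water channel of astrocyte end feet, averaged 125 ± 11.7 CPM. Oligodendrocyte precursor genes summed to 521 to 694 CPM, with Pdgfra at 51.8 ± 4.32 CPM and Cspg4 at 47.8 ± 6.87 CPM. Genes of myelin, which begins to form in the rat forebrain at about this age, were the more variable. Mbp (myelin basic protein) had 137, 93.9, 283, 99.9 and 195 CPM in females 1 to 5, and 93.1 to 202 CPM in males (median 133), with female 3, female 5 and male 4 high. Mobp, a late myelin gene, had 5.64, 1.05, 25.5, 3.7 and 9.24 CPM in females 1 to 5, and 0.742 to 7.37 CPM in males (median 4.66), and Opalin and Ermn, genes of mature oligodendrocytes, averaged 0.316 and 0.15 CPM.

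Microglial genes were even, with a summed level of 185 to 247 CPM, and P2ry12, a receptor of resting microglia, averaged 36.2 ± 3.31 CPM. Endothelial genes summed to 264 to 307 CPM, led by Flt1 at 62.8 ± 5.92 CPM and Abcb1a at 61.4 ± 6.73 CPM. Meningeal and fibroblast genes summed to 194 to 416 CPM, with Col1a2, a collagen chain, at 109, 104, 149, 158 and 114 CPM in females 1 to 5, and 78.4 to 154 CPM in males (median 120.1). The globin genes and other red cell genes summed to 217 to 575 CPM, led by Hba-a1 at 159 ± 43.7 CPM. Hba-a1 and Hba-a2 are near-identical copies, so the split between them is uncertain.

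Female 3 stood apart in choroid plexus content. Ttr, transthyretin, which choroid plexus cells make in great amount, had 0.364, 0.699, 179, 0.176 and 0.554 CPM in females 1 to 5, and 0.169 to 1.17 CPM in males (median 0.485). Its value of 179 CPM in female 3 was the only one above 2 CPM. The other markers differed less, with Otx2 at 3.18 CPM in female 3 and 3.13 to 9.06 CPM over all libraries, while Kl and Folr1 were at 5.99 and 3.18 CPM there against at most 3.86 and 0.881 CPM in the other 10. Without female 3 the choroid list summed to 10.6 to 17.1 CPM. In the tanycyte list only Crym and Col23a1 averaged above 5 CPM. Crym, a thyroid hormone binding protein that striatal neurons also express, had 66.2, 50.5, 125, 106 and 69.5 CPM in females 1 to 5, and 49.3 to 126 CPM in males (median 65) and was high in the libraries in which the striatal list was high.

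Among genes with an assigned symbol and outside the mitochondrial genome, Meg3, Copg2 and ribosomal RNA were the most abundant. Mitochondrial-encoded genes took 4.09% to 5.28% of the counts and nuclear ribosomal RNA 1.68% to 2.73%. Meg3, a maternally expressed long noncoding RNA, had 9971, 8809, 8131, 8561 and 9340.1 CPM in females 1 to 5, and 8046 to 9696 CPM in males (median 8763). Copg2, a coat protein gene that neighbours the imprinted gene Mest, had 5952, 6404, 3886, 4187 and 6449 CPM in females 1 to 5, and 4336 to 7154 CPM in males (median 5838). Mest itself averaged 23.4 CPM, and since no strand setting is given, tags of Copg2 and of overlapping or antisense transcripts cannot be told apart. Rn45s and Rn18s, precursor and mature ribosomal RNA, averaged 5587 and 5059.9 CPM and share their sequence.

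The remaining genes among the 15 highest with an assigned symbol are mostly of the neuronal cytoskeleton, synapse and membrane. Tuba1a, an alpha tubulin of young neurons, had 4019, 4811, 3915, 3944 and 4489 CPM in females 1 to 5, and 3549 to 5041 CPM in males (median 4690.0). Lsamp, a cell adhesion protein of limbic neurons, averaged 2739 ± 283 CPM. Map1b, a microtubule protein of growing axons, had 2370.2, 2469, 1722, 1808 and 2405 CPM in females 1 to 5, and 1877 to 2641 CPM in males (median 2525), and Ubb, a ubiquitin gene, averaged 2034 ± 241 CPM. Nkain2, Rbfox1, Nrxn3, Robo1, Ube3a and Celf2 averaged between 1653 and 1859 CPM. Celf2 and Rbfox1, both RNA-binding splicing regulators, were lowest in male 4, at 959 and 1168 CPM, and highest in female 4, at 2210.4 and 2401 CPM. A further 5 genes without an assigned symbol, averaging 2374 to 5065 CPM, stood above the last of the 15. No small group of genes dominated a library, and the 100 highest genes of a library held 17.2% to 19.3% of its counts.

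Spread between libraries was expressed as the biological coefficient of variation (BCV), the relative variation left after counting error. Over the 14112 genes with a mean of 5 CPM or more the median BCV was 0.0957. It was 0.112 for genes of 5 to 20 CPM, 0.0822 for genes of 100 to 1000 CPM and 0.106 for the 56 genes of 1000 CPM or more. A BCV above 0.3 was reached by 121 genes and above 0.5 by 28. These counts take all 11 libraries as independent apart from the table covariate, although 5 litters gave a library to both tables. With litter and table as covariates 6 genes had a BCV above 0.5. Other filters and dispersion estimates gave 14 to 92 genes. Of the 28, 11 are small nucleolar RNA (snoRNA) genes, 7 are pseudogenes and 5 code for proteins. Only 7 carry an assigned symbol.

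Among the 10 genes of lowest BCV with a mean of 100 CPM or more were Trio, Nktr, Strn4, Herc2, Ankrd17, Nsd1, Huwe1, Znrf1 and Rpl35, with BCVs of 0.0604 to 0.0618. The method draws each gene towards the others, so these low values tend to be overstated and their order is uncertain. Trio, an exchange factor for small GTPases, had 178, 186, 185, 189 and 185 CPM in females 1 to 5, and 170.2 to 181 CPM in males (median 179). Herc2 and Huwe1, both large ubiquitin ligases, averaged 141 ± 3.02 CPM and 214 ± 4.96 CPM.

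**Figure D4:**
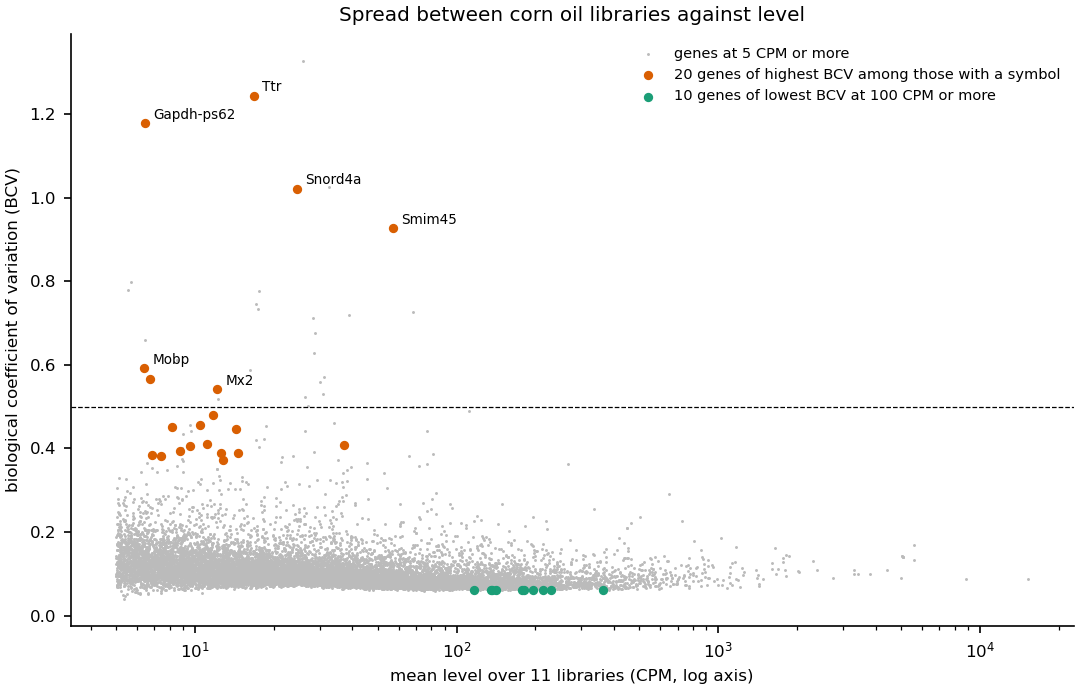
BCV of each of the 14112 genes at a mean of 5 CPM or more (grey) against mean CPM (log axis), with the 20 genes of highest BCV among those with a symbol (orange, 6 of them labelled) and the 10 of lowest BCV at 100 CPM or more (green), and a dashed line at 0.5. Ttr, Gapdh-ps62, Snord4a and Smim45 stand above a BCV of 0.9, far from the band that holds most genes.

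Of the 20 genes of highest BCV among those with a symbol, several belonged to the region, cell and peptide lists. These include Ttr, Mobp, Tbr1, Cck and Gbx1, already described. Nrn1 (neuritin) had 5.82, 9.09, 24.1, 7.75 and 9.24 CPM in females 1 to 5, and 2.95 to 21.9 CPM in males (median 9.22), with female 3 and male 4 high. Irs4, an insulin receptor substrate expressed in the hypothalamus, had 6.18, 6.99, 2.06, 3.7 and 6.47 CPM in females 1 to 5, and 3.19 to 28.4 CPM in males (median 7.34), with male 4 highest. Frem2, an extracellular matrix protein, had 5.64, 4.2, 16.7, 8.46 and 5.54 CPM in females 1 to 5, and 3.16 to 15.4 CPM in males (median 5.82), with female 3 and male 1 high. Mx2, an interferon-induced GTPase, had 2.73, 14.7, 17.6, 4.23 and 14 CPM in females 1 to 5, and 2.58 to 27.2 CPM in males (median 13.9). Its low libraries were female 1, female 4, male 5 and male 6, which are the pairs from litters 33 and 50.

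Other genes of high BCV were low in certain libraries. Smim45, a small membrane protein gene, had 36.7, 79.7, 93, 0.176 and 72.6 CPM in females 1 to 5, and 0.169 to 86.1 CPM in males (median 65.6). It had 0.176 CPM in female 4 and 0.169 CPM in male 5, both from litter 50, while all others had 36.7 CPM or more. Alkbh5, an RNA demethylase, had 42.9, 47.9, 51.3, 43.7 and 8.32 CPM in females 1 to 5, and 9.9 to 54.2 CPM in males (median 37.1). Its low libraries were female 5 and male 4, both from litter 9. Zfp94l1 and Kdelr3 ranged over 5.37 to 28.8 and 3.5 to 24.1 CPM, and Wdr87 over 2.62 to 19.6 CPM. Arl4d, a small GTPase, had 12, 11.2, 18, 18.9 and 15.9 CPM in females 1 to 5, and 1.05 to 15.6 CPM in males (median 11.1), with only male 3 and male 4 low, at 1.46 and 1.05 CPM.

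Snord4a, a snoRNA gene, had 32.7, 37.2, 0.187, 35.8 and 41.8 CPM in females 1 to 5, and 0.366 to 46.6 CPM in males (median 18). Female 3, male 3, male 5 and male 6 were low and came from 4 litters, and their litter-mates where measured were not low. The processed pseudogene Gapdh-ps62 had 9.27 to 10.7 CPM in 7 libraries and no count in female 5, male 1, male 3 and male 6. Rpl19-ps1 and Rpl19-ps15 ranged over 1.26 to 26.6 and 2.53 to 23.4 CPM and were lowest in male 4. Pseudogene copies can share tags with their parent gene. Nnat, an imprinted gene highly expressed in young brain and named here after its values were seen, had 703, 803, 613, 649 and 616 CPM in females 1 to 5, and 152 to 807 CPM in males (median 702). Male 4 was the low library, at 152 CPM.

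Genes with a wide range were counted with a rule chosen after the data were seen: a mean of 5 CPM or more, and a highest library at least 10 times the lowest of the same table, with the lowest set to 3 counts where it was under that. It held for 31 genes (0.220% of 14112), 20 in the female and 22 in the male table. Of the 31, 11 carry a symbol, 11 are snoRNA genes, and 12 lie on chromosome 6 between Dlk1 and Dio3, beside Meg3. That stretch is an imprinted domain in mammals and carries clusters of repeated snoRNA genes that are cut from long noncoding host transcripts of the maternal chromosome.

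The snoRNA genes of the domain were followed as a group. Of 42 in the tables, 37 averaged 5 CPM or more, 28 of these had a BCV above 0.3 and 10 above 0.5, against 121 and 28 of all 14112 genes. Their sum was 1080.5, 1261, 471, 436 and 1656 CPM in females 1 to 5, and 479, 1157, 1058, 915, 932 and 1182 CPM in males 1 to 6. Female 3, female 4 and male 1 were low, and these are the 3 libraries in which the striatal list was highest. Of these, female 3 and male 1 are litter-mates. Meg3 had 8131, 8561 and 8425 CPM in these 3 and 8046 to 9971 CPM over all 11. LOC102555254, a long noncoding RNA gene of the same stretch named after its values were seen, had 2085, 2047 and 2042 CPM in the 3. It had 2145 to 2781 CPM in the other 8, so it was lowest, by a narrow margin, in the same 3 libraries as the snoRNA sum. This was not particular to the stretch. Copg2, which neighbours Mest, had 3886, 4187 and 4336 CPM in the 3 and 5215 CPM or more in the other 8. Map1b had 1722, 1808 and 1877 CPM in the 3 and 2362 CPM or more in the other 8. The repeated copies resemble each other, so the division of tags among them is uncertain and the sum is the firmer value. Whether these levels come from snoRNAs or from the host transcript was not tested.

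**Figure D5:**
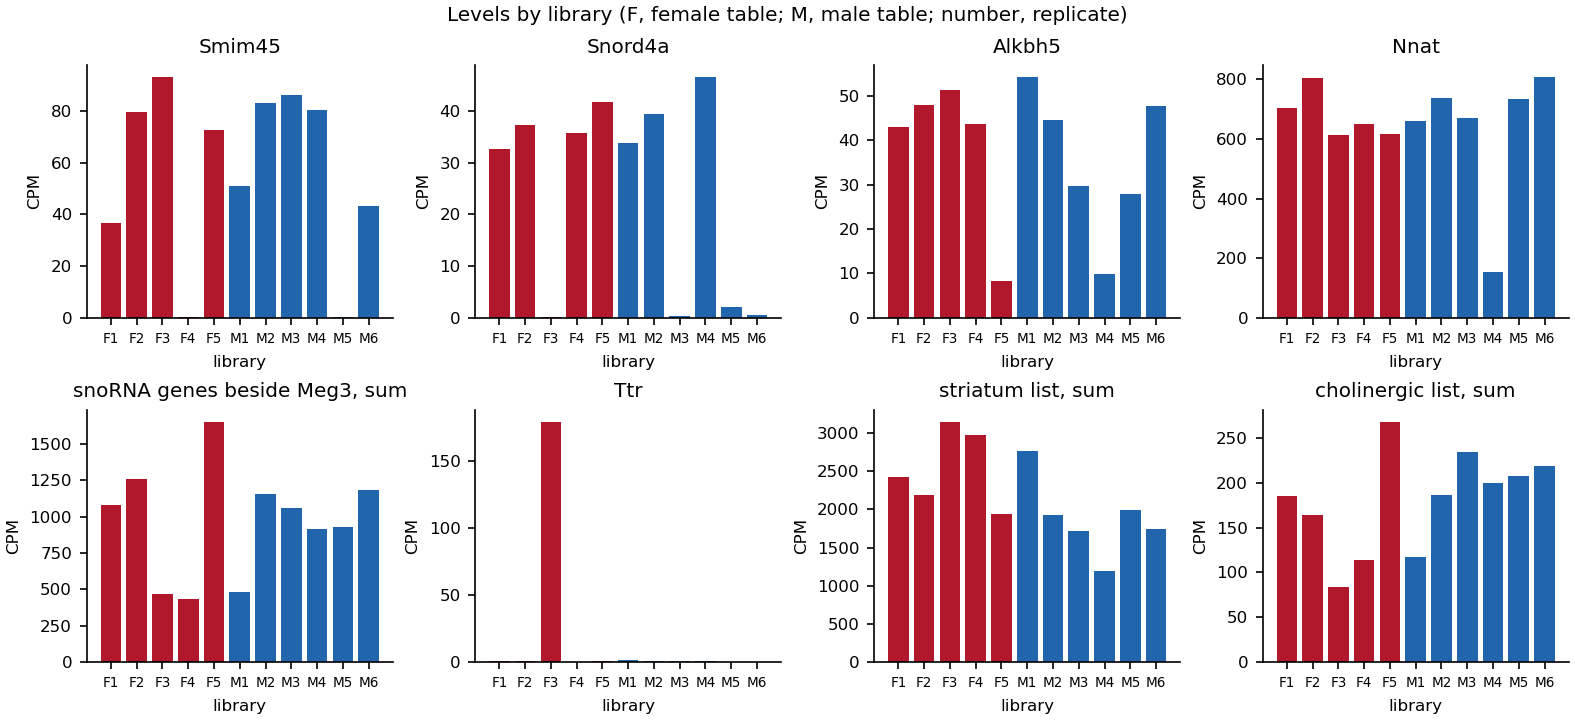
CPM by library (F1 to F5 female in red, M1 to M6 male in blue, axes from 0) for Smim45, Snord4a, Alkbh5, Nnat, the summed snoRNA genes between Dlk1 and Dio3, Ttr, and the striatum and basal forebrain cholinergic lists. Smim45 is near 0 in F4 and M5, Alkbh5 is low in F5 and M4, Nnat in M4, and the snoRNA sum is low in F3, F4 and M1, where the striatum list is high and the cholinergic list low.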

How the data were processed

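Tag counts of 11 corn oil libraries (5 female, 6 male), grouped by the treatment in the labels, were used. The authors deposited unscaled tag counts, whole numbers for each gene, in a female and a male table. Per the submitters' processing notes, cutadapt 1.18, STAR 2.7.3a, SAMtools 1.10 and bedtools 2.27.1 and the build mRatBN7.2 are named. What each did, which annotation and strand setting were used and whether duplicates were dropped is not given in the sources used here. Per the labels' protocols, RNA came from unfixed frozen tissue through an extraction kit for FFPE material. Every column was matched to a library by name, and 0 were left over. No molecular identifiers are named, so reads may repeat a molecule, and floors cover counting error only. The labels do not say that libraries of 1 litter are independent.

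Counts were scaled to CPM of the library total in Python 3.11.15. The BCV is the tagwise value of edgeR 4.0.16 in R 4.3.3 (TMM scaling, table as covariate, genes with a mean count of 1 or more), tested on simulated data first. The tagwise method shrinks each gene towards the others, so a high BCV tends to be understated and a low BCV overstated. No groups were compared, so no p-value is given. Alternatives were TMM or RLE sizes, DESeq2 1.42.0 dispersions, other filters and covariates, medians, and each library left out. Of 40643 identifiers, 35203 matched a symbol of the RefSeq table (GRCr8, used for names, biotypes, gene neighbours and promoter windows only), 179 only a synonym, and 14468 carry no assigned symbol and were counted, not named, apart from 1 beside Meg3.

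The members and the 35 lists (475 of 478 genes found) were chosen with earlier results of these data known. Named by rule were the 15 most abundant genes, up to 6 of each list (any of the peptide, hormone and monoamine lists), the 20 of highest BCV at 5 CPM or more, the 10 of lowest BCV at 100 CPM or more, and list members whose highest library was 3 times or more its lowest. Aqp4, Grin2a, Grin2b, Mc3r, Mest, Nnat, Oprk1, Oxtr, Scg2 and Vgf fall outside the rule and were named after their values were seen. A few genes are left unreported, although sums over lists include them.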

Additional observations from a re-analysis of the deposited data

Results flagged for a closer look

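In each of 397 sets of 5 female or 6 male values, of lists and of named genes averaging 1 CPM or more, the highest and the lowest library were set against the rest, and 34 stood far from the others of the same sex (Dixon's 95% critical value). Chance gives about 1 in 20 sets only where the sets were not chosen by their values. Some of these genes were named for their spread in the same values, so that rate does not apply to them. Lists also share members with the named genes. No explanation was tested for any of them.

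Male 1 gave 14 of the 34. It was lowest of the males for the acetylcholine genes (126 CPM, next 185 CPM), the pan-neuronal list (5669 CPM, next 6694 CPM) and the preoptic list (119 CPM, next 169 CPM). Lhx6 (46 CPM, next 97.9 CPM), Lhx8 (21.8 CPM, next 38.2 CPM), Map1b (1877 CPM, next 2362 CPM) and Grp (1.68 CPM, next 4.05 CPM) were lowest there as well. It was highest for the striatal genes Drd1 (61.2 CPM, next 27.3 CPM) and Ppp1r1b (142 CPM, next 65.4 CPM), for Crym (126 CPM, next 66.8 CPM) and with it the tanycyte list (145 CPM, next 84.9 CPM), and for Oprk1 (22.1 CPM), Frem2 (15.4 CPM) and Arc (3.52 CPM).

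Male 4 was highest for the peptide receptor list (813 CPM, next 760.0 CPM), the microglial list (247 CPM, next 209.7 CPM) and the pituitary list (6.32 CPM, next 3.66 CPM). Irs4 (28.4 CPM, next 12.2 CPM), Pcsk1 (13.1 CPM, next 6.22 CPM) and Gabbr1 (555 CPM, next 488 CPM) were highest there, and Nnat was lowest (152 CPM, next 659.9 CPM).

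Female 3 was highest for the choroid plexus list (201 CPM, next 15.5 CPM), through Ttr (179 CPM, next 0.699 CPM) and Kl (5.99 CPM, next 3.17 CPM), and for Nrn1 (24.1 CPM) and Tph2 (2.06 CPM). Snord4a (0.187 CPM, next 32.7 CPM) and Huwe1 (203 CPM, next 213 CPM) were lowest there. Female 2 was highest for the list of young neurons (3819 CPM, next 2832 CPM), through Tubb2b (2251 CPM) and Stmn1 (1022 CPM), and for Fosl2 (37.4 CPM) and Pomc (2.80 CPM). Female 5 was lowest for Alkbh5 (8.32 CPM, next 42.9 CPM).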

How the results depend on the processing

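No paired analysis was possible because no groups were compared, and of the replicate numbers shared by the 2 tables only number 2 marks the same litter in both. The count of 28 genes with a BCV above 0.5 was 71 with gene-wise DESeq2 dispersions, 92 with a mean of 1 CPM or more, 14 with a mean of 20 CPM or more and 6 with litter and table as covariates, and 233 genes had an SD of log2 CPM above 0.5. The 31 genes with a range of at least 10 times became 72 at 5 times or more, a rule added after the data were seen. The SD of a few libraries is small for even sums, so leaving mitochondrial-encoded genes out of the library total, which raises every level, moved 9 list sums by more than 1 SD. These became 827 CPM for GABA synthesis and transport in males, 308 CPM for glutamate synthesis and transport in females, 1827 and 1844 CPM for peptide processing in females and males, 771 and 796 CPM for peptide receptors in females and males, 976 CPM for hormone receptors in females, 3370.2 CPM for GABA and glycine receptors in females and 294 CPM for endothelial genes in males. The same setting moved 16 levels of single genes. The other alternatives, each library left out in turn included, moved no list sum or gene level by more than 1 SD and no count of detected genes by more than 1.5 times. A single high library also raises the SD, and 2 list sums and 7 levels of single genes averaging 1 CPM or more in their table moved by over 1.5 times. Without female 3, the female choroid plexus sum was 14.4 CPM against 51.7 CPM with it, Ttr 0.448 CPM against 36.2 CPM, Mobp 4.91 CPM against 9.02 CPM and Slc17a7 0.679 CPM against 1.55 CPM. Without male 4, Slc17a7 in males was 2.55 CPM against 4.76 CPM, and without female 2, Pomc in females was 0.685 CPM against 1.11 CPM. The male median was 12.9 CPM against a mean of 29.4 CPM for the cortical list, 7.58 against 13.3 CPM for Cck, 6.81 against 11.1 CPM for Tbr1 and 1.22 against 4.76 CPM for Slc17a7. Depth limits genes near 0.503 to 0.632 CPM.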
